A study of Mus musculus with 6 samples.

Results

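The genes described here encode the receptors for interleukin 1 (IL-1), IL-18, IL-33 and IL-36 and their common signalling parts: Il1r1, Il1r2, Il1rl1, Il1rl2, Il18r1, Il18rap, Il1rap and Myd88. They were taken by gene name from a table of 55840 genes, and all 8 were found and all 8 passed the filter on low counts (14919 genes tested). RNA was taken from Tregs of mice, suppressive T cells whose defining transcription factor is Foxp3. The series title places them in spleen and lymph nodes (LNs). The 2 groups were Tregs of genotype WT and Tregs of genotype Exon2KO, which the title calls Foxp3∆2, with 3 libraries each; the labels name no treatment. Age, strain, sorting marker, Cre driver, time and any pooling of mice are not given in the sources used here. The titles call the libraries biological replicates without naming a mouse, so a p-value measures the spread between these libraries.

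The family was chosen by name with the measured difference between Exon2KO and WT in these 6 libraries in view, so it counts as selected on that difference. Levels and differences between the genotypes are therefore a description of these 8 genes and not a test of them. Each gene was part of an edgeR fit over all 14919 genes, and "called" below means an adjusted p under 0.05 in that fit.

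IL-1 family cytokines act through paired receptor chains. A chain that binds the cytokine recruits an accessory chain, and the joined Toll/IL-1 receptor (TIR) domains inside the cell bind the adaptor MyD88, which passes the signal through IRAK kinases and TRAF6 to NF-kB and MAP kinases. In Tregs the IL-33 receptor ST2, the product of Il1rl1, marks cells of an effector and tissue-repair type, while the IL-1 receptor is better known from T cells of the type 17 kind. IL-1 receptor 2, the product of Il1r2, is a decoy that binds IL-1 without a signalling domain.

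Total counts per library ran from 17998216 to 21003496. The library columns carry a genotype and a number, 2, 6 or 20, which no label explains; libraries are named by both, such as WT 20. Both libraries numbered 20 stood apart from the others: the neutrophil gene S100a9 was at 21.8 CPM in WT 20 and 15.6 in Exon2KO 20 (CPM, counts per 1000000 of the scaled library size) against 2.10 to 3.44 in the other 4. Foxp3 was at 783, 602 and 751 CPM in WT 2, 6 and 20, and at 826, 684 and 925 CPM in Exon2KO 2, 6 and 20. The counts are per gene, so they do not resolve exon 2 and do not check the genotype labels. Of the 7 CD4 T and Treg markers checked (Cd3e, Cd4, Trac, Foxp3, Il2ra, Ctla4 and Ikzf2), none was absent and 3 were called lower (Il2ra, Ctla4 and Ikzf2), against 1.58% of all tested genes. Their summed level was 3538 to 3967 CPM in WT and 3310 to 3619 CPM in Exon2KO.

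Of the receptor genes, 6 lie side by side on the plus strand of chromosome 1 (GRCm38), within 477.6 kb from position 40074079 to 40551705. Their order is Il1r2 (40074079 to 40125231), Il1r1 (40225080 to 40317257), Il1rl2 (40324610 to 40367562), Il1rl1 (40429570 to 40465415), Il18r1 (40465552 to 40500854) and Il18rap (40515362 to 40551705). Only 136 bases separate the annotated end of Il1rl1 from the start of Il18r1. Il1rap lies on chromosome 16 (26581704 to 26730117, plus strand) and Myd88 on chromosome 9 (119335934 to 119341411, minus strand). The longest coding transcript of Il1r2 has 410 codons in GENCODE release M21 and that of Il1r1 has 576. Il1rl1 has transcripts of 567 codons and of 337 codons; the long product is the membrane receptor and the short one is its secreted form. The deposited table has one count per gene, so these forms could not be separated.

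Il1rl1 and Il1r1 had the largest differences of the family, in opposite directions, so the bases before their starts are shown. RefSeq gives each gene 2 starts, and these are the 250 bases before each, on the plus strand of GRCm38.p6, 5′ to 3′. Capitals mark matches to 3 motifs searched on both strands. The motif of forkhead factors, the protein family of Foxp3, was GTAAACA. For GATA factors, which include the type 2 regulator Gata3, it was AGATAA with the other accepted form TGATAA. The motif of AP-1, the dimers of Fos and Jun proteins, was TGANTCA.
Il1rl1, first start, chr1:40429320-40429569: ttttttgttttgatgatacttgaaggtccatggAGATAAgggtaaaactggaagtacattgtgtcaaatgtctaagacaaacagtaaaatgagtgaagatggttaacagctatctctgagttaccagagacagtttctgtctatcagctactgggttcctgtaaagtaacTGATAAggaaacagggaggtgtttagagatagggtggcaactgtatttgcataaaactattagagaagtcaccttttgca
Il1rl1, second start, chr1:40439379-40439628: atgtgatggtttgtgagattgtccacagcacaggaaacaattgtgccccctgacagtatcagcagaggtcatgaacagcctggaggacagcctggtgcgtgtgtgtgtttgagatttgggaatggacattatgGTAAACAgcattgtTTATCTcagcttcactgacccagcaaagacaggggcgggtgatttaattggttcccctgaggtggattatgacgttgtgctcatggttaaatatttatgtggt
Il1r1, first start, chr1:40224830-40225079: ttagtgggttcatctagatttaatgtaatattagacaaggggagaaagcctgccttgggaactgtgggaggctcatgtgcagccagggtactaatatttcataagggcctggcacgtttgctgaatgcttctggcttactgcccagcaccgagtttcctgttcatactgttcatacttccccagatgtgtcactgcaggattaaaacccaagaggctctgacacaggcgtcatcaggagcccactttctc
Il1r1, second start, chr1:40266336-40266585: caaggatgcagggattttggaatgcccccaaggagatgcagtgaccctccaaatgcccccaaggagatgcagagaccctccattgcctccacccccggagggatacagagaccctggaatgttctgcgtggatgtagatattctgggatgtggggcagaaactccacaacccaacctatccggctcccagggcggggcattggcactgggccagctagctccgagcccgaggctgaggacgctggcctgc

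Before the first Il1rl1 start there were GATA matches beginning 217 and 80 bases upstream. Before its second start there were a forkhead match at 117 bases and a GATA match on the other strand (TTATCT) at 103 bases, and none of these matches overlap. Neither Il1r1 window held any of the 3 motifs, which says only that these letters are not in those bases. Of all 32851 RefSeq windows of this length, 3.17% held the forkhead motif, 16.6% a GATA motif and 6.75% the AP-1 motif. Among the 12 windows of the 8 genes, 4 held a GATA motif (both of Il1rl1 and those of Il1r2 and Il18rap), and 1 the forkhead motif. These matches are letters in a reference sequence; the data hold no measure of binding.

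Levels of different genes were compared per length, as CPM per kilobase of the gene length in the deposited table. In WT Tregs the adaptor Myd88 (23.1 ± 0.906, SD, n = 3), the IL-18 binding chain Il18r1 (22.7 ± 2.11) and the decoy Il1r2 (16.4 ± 4.03) stood highest, and each overlapped the next over its libraries. The overlap of Il18r1 with Il1r2 was narrow, with 20.7 in the lowest Il18r1 library and 20.8 in the highest Il1r2 library. On unscaled library totals these values were 20.8 and 21.1. The overlap was absent in the authors' own length-scaled values, which were looked at but are not given here. Below Myd88, Il18r1 and Il1r2 came the IL-33 receptor Il1rl1 (8.70 ± 2.49), the IL-18 accessory chain Il18rap (3.28 ± 0.611) and the common accessory chain Il1rap (1.64 ± 0.177). The IL-36 receptor Il1rl2 (0.284 ± 0.033) and the IL-1 signalling receptor Il1r1 (0.136 ± 0.036) stood lowest. From Il1r2 downward no neighbours in this order overlapped.

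Exon2KO Tregs had the same top of the order per length: Myd88 (24.8 ± 0.991 CPM per kilobase, SD, n = 3), Il18r1 (20.1 ± 4.52) and Il1r2 (6.08 ± 0.664), with no overlap between neighbours down to Il18rap (1.96 ± 0.319). Below that the order was not resolved. Il18rap, Il1rap (1.70 ± 0.148), Il1rl1 (1.28 ± 0.397), Il1r1 (0.959 ± 0.497) and Il1rl2 (0.627 ± 0.192) each overlapped the next. By its mean the IL-33 receptor had rank 4 per length in WT and rank 6 in Exon2KO. In Exon2KO its libraries overlapped those of its neighbours in rank, so that place was not resolved.

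Il1rl1, the chain that binds IL-33, was the most strongly lower gene of the family. WT 2, 6 and 20 gave counts of 916, 925 and 1701, and Exon2KO 2, 6 and 20 gave 118, 158 and 211. In CPM these are 49.2, 51.0 and 79.8 against 6.56, 8.11 and 11.9. Every Exon2KO library lay far below every WT library, and in both genotypes the library numbered 20 was the highest. The mean was 60.0 ± 17.2 CPM in WT and 8.84 ± 2.73 CPM in Exon2KO (SD, n = 3 each). That is 6.79-fold lower, with a log2 fold change of -2.76 (SE 0.28). Within the same-numbered pairs the log2 differences were close to each other: -2.91 for number 2, -2.65 for number 6 and -2.75 for number 20. Fewer cells that express a gene and less of its RNA per cell cannot be told apart in bulk samples, here and for the genes below.

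Mast cells and basophils also express Il1rl1. Of 8 marker genes of these cells, 5 (Mcpt8, Fcer1a, Ms4a2, Mcpt4 and Gata2) had no count in any library. The summed level of the list was 4.19 to 4.74 CPM in WT and 4.61 to 7.72 CPM in Exon2KO. The other 3 were Kit, Cpa3 and Hdc, and the highest sum was mostly Kit in Exon2KO 2, at 6.002 CPM. The part of such cells in the Il1rl1 values was not tested.

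Il1r2, the decoy for IL-1, was also lower. WT 2, 6 and 20 gave counts of 459, 535 and 846, and Exon2KO 2, 6 and 20 gave 225, 198 and 216, or 24.7, 29.5 and 39.7 against 12.5, 10.2 and 12.2 CPM. The WT libraries spread more than the Exon2KO libraries, with WT 20 the highest, and the groups did not overlap. The means were 31.3 ± 7.69 and 11.6 ± 1.27 CPM (SD, n = 3 each). That is 2.70-fold lower, with a log2 fold change of -1.43 (SE 0.18). Neutrophils express Il1r2 too. The summed level of 7 neutrophil genes, none of them at 0 in all libraries, overlapped between the genotypes (6.22 to 41.9 CPM in WT, 6.16 to 30.9 CPM in Exon2KO), and without the libraries numbered 20 the log2 fold change of Il1r2 was -1.26. The part of such cells in the Il1r2 values was not tested. The noncoding genes Gm16894 (91 counts in all, minus strand) and Gm37347 (74 counts in all, plus strand) lie inside Il1r2, and no use of strand is stated for the counts.

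Il1r1, the signalling receptor for IL-1, differed in the other direction. WT 2, 6 and 20 gave counts of 18, 11 and 22, and Exon2KO 2, 6 and 20 gave 95, 187 and 61. In CPM these are 0.966, 0.606 and 1.03 against 5.28, 9.59 and 3.43. All 3 Exon2KO libraries were above all WT libraries but differed among themselves, with Exon2KO 6 the highest and Exon2KO 20 the lowest. The means were 0.868 ± 0.23 and 6.10 ± 3.16 CPM (SD, n = 3 each). That is 6.96-fold higher, with a log2 fold change of 2.80 (SE 0.42). The same-numbered pairs differed by 2.45 in log2 units for number 2, 3.98 for number 6 and 1.73 for number 20. The call was lost without WT 2 (2.87), without WT 6 (2.61), without Exon2KO 2 (2.89) and with limma-voom (2.69). Even after this difference Il1r1 stayed a low gene, at 0.539 to 1.51 CPM per kilobase in Exon2KO.

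Genes of type 17 helper cells were read beside Il1r1. Of the 5 genes read, 3 were tested, 1 was called higher (Il17a) and none lower, against 0.757% and 1.58% of all tested genes. Il17a had counts of 0, 0 and 1 in WT 2, 6 and 20, and of 14, 16 and 11 in Exon2KO 2, 6 and 20. It passed the filter on low counts only through the Exon2KO libraries, so nothing is read from its call. The summed level of the 5 genes was 30.6 to 44.4 CPM in WT and 10.9 to 23.7 CPM in Exon2KO, and none of them was at 0 in all libraries. Ccr6, a chemokine receptor that Tregs also express, made up most of that sum, at 30.5 to 43.8 CPM in WT and 9.96 to 20.9 CPM in Exon2KO. Il23r, a receptor chain for IL-23, was at 0.43, 0.11 and 0.61 CPM in WT 2, 6 and 20, and at 0.889, 2.15 and 0.056 CPM in Exon2KO 2, 6 and 20. These Exon2KO values rest on counts of 16, 42 and 1, and Il23r was not called (1.41 in log2 units, edgeR adjusted p = 0.696). Il17f, which did not pass the filter on low counts, was at 0.215, 0 and 0.516 CPM in WT 2, 6 and 20. In Exon2KO 2, 6 and 20 it was at 0.333, 0.154 and 0.281 CPM, lowest where Il1r1 was highest. Among the CD8 T and NK markers, Eomes was at 22.5 CPM in Exon2KO 6, where Il1r1 was highest, and at 4.55 to 7.27 CPM in the other 5 libraries. Of the other 5 genes on that list, Klrd1 was also highest in Exon2KO 6 (1.44 CPM), Cd8b1 was lowest there (7.18 CPM against 8.81 to 12.3 CPM), and Cd8a, Klrb1c and Ncr1 were neither. The part of any of these cells in the Il1r1 values was not tested.

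Il1rl2, the receptor for IL-36 and the next gene after Il1r1, was low throughout. WT 2, 6 and 20 gave counts of 36, 31 and 46, and Exon2KO 2, 6 and 20 gave 104, 69 and 62, or 1.93, 1.71 and 2.16 against 5.78, 3.54 and 3.49 CPM. The groups did not overlap, and Exon2KO 2 was set apart from the other Exon2KO libraries. The log2 fold change was 1.14 (SE 0.29) and was not called; with the column number as a replicate block it was 1.11 (SE 0.26) and was called. The pseudogene Gm17970 inside Il1rl2 had 14 counts in all libraries together.

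The IL-18 receptor has a binding and an accessory chain. Il18r1, which binds IL-18, gave counts of 2006, 1814 and 2559 for WT 2, 6 and 20, and of 1999, 2108 and 1279 for Exon2KO 2, 6 and 20, or 108, 99.9 and 120.1 against 111, 108 and 72.0 CPM. The groups overlapped; only Exon2KO 20 was below all WT libraries. The log2 fold change was -0.17 (SE 0.16), not called, and it was 0.077 without the libraries numbered 20. Il18r1 starts 136 bases beyond the end of Il1rl1 and shares its strand.

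Il18rap, the accessory chain for IL-18, gave counts of 442, 317 and 538 for WT 2, 6 and 20, and of 280, 250 and 201 for Exon2KO 2, 6 and 20, or 23.7, 17.5 and 25.2 against 15.6, 12.8 and 11.3 CPM. The groups did not overlap, but WT 6 lay close to Exon2KO 2. The log2 fold change was -0.74 (SE 0.18) and was not called; with the replicate block it was -0.74 (SE 0.13) and was called. Without the libraries numbered 20 it was -0.54.

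Il1rap, the accessory chain that IL-1, IL-33 and IL-36 receptors share, was at 17.1, 17.9 and 20.9 CPM in WT 2, 6 and 20, and at 20.7, 17.4 and 19.7 CPM in Exon2KO 2, 6 and 20. The groups overlapped, with a log2 fold change of 0.05 (SE 0.13), not called. The direction turned without WT 2 (-0.011) and without Exon2KO 2 (-0.0091).

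Myd88, the adaptor, was at 56.9, 61.5 and 59.8 CPM in WT 2, 6 and 20, and at 65.7, 65.2 and 61.1 CPM in Exon2KO 2, 6 and 20. WT 6 overlapped Exon2KO 20, and the log2 fold change was 0.11 (SE 0.08), not called. Acaa1a on the opposite strand overlaps Myd88 and had 11329 counts over all libraries, so reads of this pair are uncertain without stated use of strand; its own log2 fold change was 0.11.

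**Figure D1:**
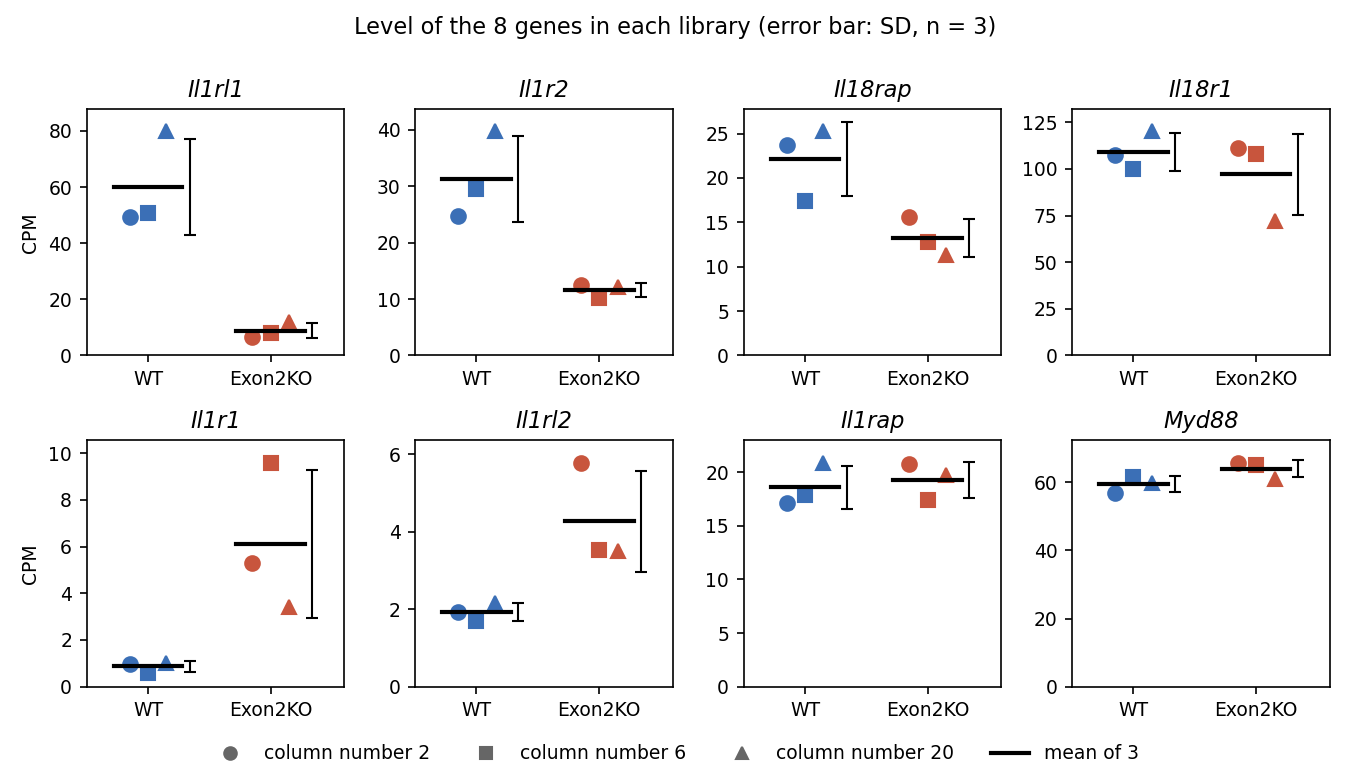
Level of each of the 8 genes in CPM (linear axes from 0) in the 3 WT (blue) and 3 Exon2KO (red) libraries; symbols give the column number, thick lines the mean and error bars the SD (n = 3). Il1rl1 and Il1r2 lie lower and Il1r1 higher in every Exon2KO library, while Il18r1, Il1rap and Myd88 overlap between the genotypes.

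In the fit over all genes 3 of the 8 genes were called, Il1r1 higher and Il1r2 and Il1rl1 lower, against 2.33% of the 14919 tested genes (0.757% higher and 1.58% lower). DESeq2 called 5 of the 8, against 4.42% of all tested genes. With the replicate block 5 of the 8 were called, the other two being Il1rl2 and Il18rap, against 9.72% of all tested genes. The groups did not overlap for the same 5 genes, against 17.7% of all tested genes. The authors' deposited table has an adjusted p under 0.05 for 5 of the 8, against 2.55% of the 24985 genes it compares. Its log2 fold changes run from -2.76 for Il1rl1 to 2.82 for Il1r1. Because the family was proposed with this difference in view, nothing is read from these shares.

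From Il1r2 to Il18rap the log2 fold changes were -1.43, 2.80, 1.14, -2.76, -0.17 and -0.74. Outside the cluster, Map4k4 on the Il1r2 side differed by 0.37 in log2 units (SE 0.10, edgeR adjusted p = 0.107), and with the replicate block it was called (0.37, edgeR adjusted p = 0.000902). On the Il18rap side Slc9a4 and Tmem182 had no count and Slc9a2 had 16 counts in all libraries together. Mfsd9, at 0.45 to 1.36 CPM, was at -0.43 in log2 units (SE 0.43, edgeR adjusted p = 0.821).

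**Figure D2:**
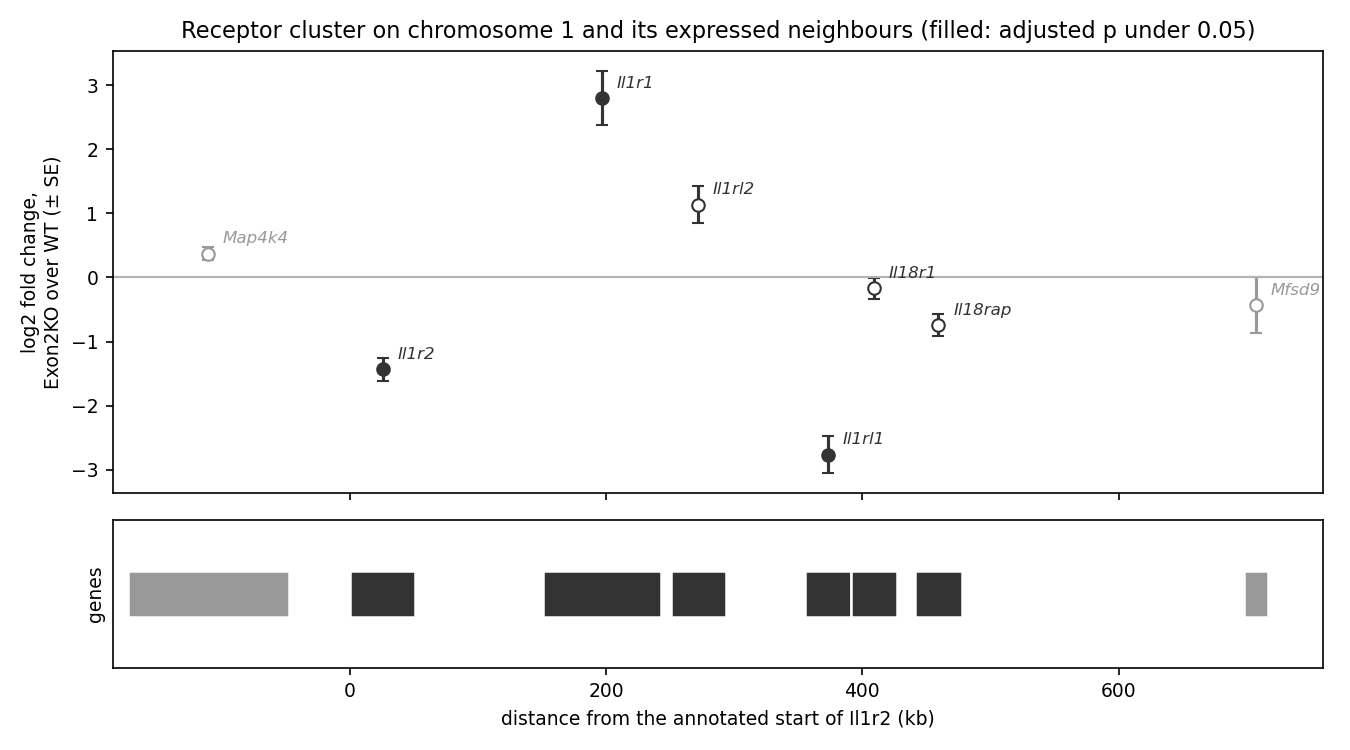
Upper panel, log2 fold change of Exon2KO over WT with its SE for the 6 cluster genes (black) and the neighbours Map4k4 and Mfsd9 (grey) against distance in kb from the start of Il1r2; lower panel, the extent of each gene. Il1r1 and Il1rl2 lie above 0 between Il1r2 and Il1rl1, which lie below it.

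Ratios between genes per length within a library do not depend on how libraries are scaled. The decoy Il1r2 was 85.0, 162 and 128 times the signalling receptor Il1r1 in WT 2, 6 and 20, and 7.90, 3.53 and 11.8 times in Exon2KO 2, 6 and 20. The decoy was thus above the signalling receptor in every library of both genotypes, by much less in Exon2KO. Il1rl1 stood at 4.75, 4.70 and 6.30 times its partner Il1rap in WT 2, 6 and 20, above the partner in each. In Exon2KO 2, 6 and 20 it stood at 0.521, 0.766 and 0.993 times Il1rap. That is below the partner in Exon2KO 2 and 6 and nearly equal to it in Exon2KO 20. Where such a ratio lies against 1 depends on the gene lengths used.

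The IL-18 binding chain Il18r1 was 6.36, 8.02 and 6.67 times its accessory chain Il18rap in WT 2, 6 and 20, and 10.01, 11.8 and 8.92 times in Exon2KO 2, 6 and 20. Of the summed CPM per kilobase of the 6 cluster genes, Il18r1 made up 40.5% to 48.2% in WT and 58.0% to 68.3% in Exon2KO. Its own mean was 22.7 in WT and 20.1 in Exon2KO, so this is a larger share of a smaller sum. The share of Il1rl1 was 15.4% to 18.8% in WT and 2.75% to 6.69% in Exon2KO, and that of Il1r1 was at most 0.328% in WT and 2.09% to 4.59% in Exon2KO. The sum itself was 46.4, 46.5 and 61.5 for WT 2, 6 and 20, against 34.5, 32.9 and 25.8 for Exon2KO 2, 6 and 20.

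**Figure D3:**
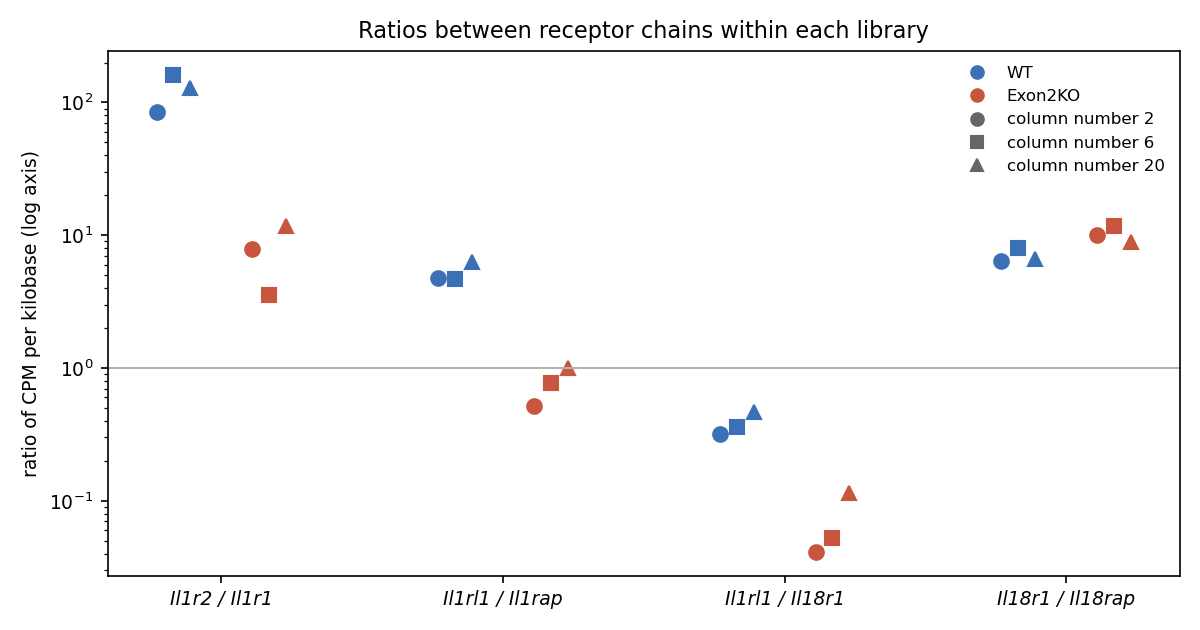
Ratios of CPM per kilobase between receptor chains within each library (log axis), WT in blue and Exon2KO in red, symbols giving the column number. The Il1r2 to Il1r1 ratio is 85.0 or more in WT and 11.8 or less in Exon2KO. The Il1rl1 to Il1rap ratio is 4.70 or more in WT and 0.993 or less in Exon2KO.

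The column number is a contrast that the choice of genes did not use, and it could be tested in the same data. In a fit with genotype and column number, 1559 of the 14919 genes (10.4%) differed between the numbers, and of the 8 receptor genes only Il1rl1 did (edgeR adjusted p = 0.000576). Its level in the libraries numbered 20 was above that in number 2 by 0.75 on the log2 scale. It was 1.59 times the mean of the other libraries in WT and 1.62 times in Exon2KO, so both genotypes showed it (higher in 2 of 2 libraries). For the other 7 genes the edgeR adjusted p ran from 0.215 (Il1r2) to 0.881 (Il18r1). For Il1r1 the corresponding ratios were 1.31 in WT and 0.462 in Exon2KO, and for Il18r1 they were 1.2 and 0.657; whether these differ between the genotypes could not be tested with 1 library each.

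Of the other pathway genes, 9 of 54 tested differed between the column numbers, against 10.4% of all tested genes. Higher in number 20 than in number 2 were the cytokine Il1b (2.22 on the log2 scale, edgeR adjusted p = 0.0032) and the NF-kB target and brake Tnfaip3 (1.46, edgeR adjusted p = 5.72e-08). Nfkbia (0.63), Nfkbiz (0.44), Rel (0.43), Tlr7 (0.36) and Zc3h12a (0.35) were also higher, and Irak3 (-0.71) and Sigirr (-0.30), both brakes of TIR signalling, were lower. The neutrophil genes S100a8 and S100a9 were higher in number 20 as well (edgeR adjusted p = 6.34e-05 and 1.32e-07). The part of other cells in the Il1rl1 values of these libraries was not tested.

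To place the receptors among their partners, 68 other genes of the pathway were listed, of which 54 were tested. No gene of the list was called between the genotypes by edgeR, 10 of 54 (18.5%) had an unadjusted p under 0.05 against 12.1% of all tested genes, and the median log2 fold change was -0.0098 against 0.0084 over all tested genes. DESeq2 called 1 of them (Relb, lower), limma-voom none. With the replicate block 3 were called higher and 5 lower, 14.8% of the 54, against 9.72% of all tested genes.

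Ligands were scarce in these cells. Il33, Il1f10, Il36a, Il36b and Il36rn had no count in any library, and of 11 ligands and antagonists 3 passed the filter. Il18bp, the secreted binder of IL-18, was the highest of the 3 in counts, at 7.44 to 12.0 CPM in WT and 9.23 to 13.4 CPM in Exon2KO (log2 fold change 0.20, SE 0.22, edgeR adjusted p = 0.833). Il18 was at -1.12 in log2 units (SE 0.46, edgeR adjusted p = 0.35) and Il1b was at 0.09 (SE 1.14, edgeR adjusted p = 0.993).

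Among the other TIR receptors and adaptors, 13 of 19 were tested, 10 with a negative and 3 with a positive log2 fold change. Over all tested genes 7193 were negative and 7726 positive. Sigirr, an inhibitory member of the receptor family, was at 126 to 166 CPM in WT and 126 to 153 CPM in Exon2KO, which is -0.08 in log2 units (SE 0.12, edgeR adjusted p = 0.883). With the replicate block the adaptors Tirap (-0.89, edgeR adjusted p = 0.0357) and Ticam2 (-1.05, edgeR adjusted p = 0.0342) were called lower; without it their edgeR adjusted p-values were 0.163 and 0.127.

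All 38 relay genes and brakes were tested, 20 with a positive and 18 with a negative log2 fold change. With the replicate block the ubiquitin ligase Traf6 (0.25), the kinase Mapk14 (0.20) and the brake Irak3 (0.68) were called higher, and the NF-kB subunits Relb (-0.29) and Nfkb2 (-0.20) and the kinase Map2k3 (-0.36) were called lower. Their edgeR adjusted p-values under the block ran from 0.0054 (Relb) to 0.0409 (Mapk14). Without the block none was called, and the lowest edgeR adjusted p was 0.0642, for Relb.

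**Figure D4:**
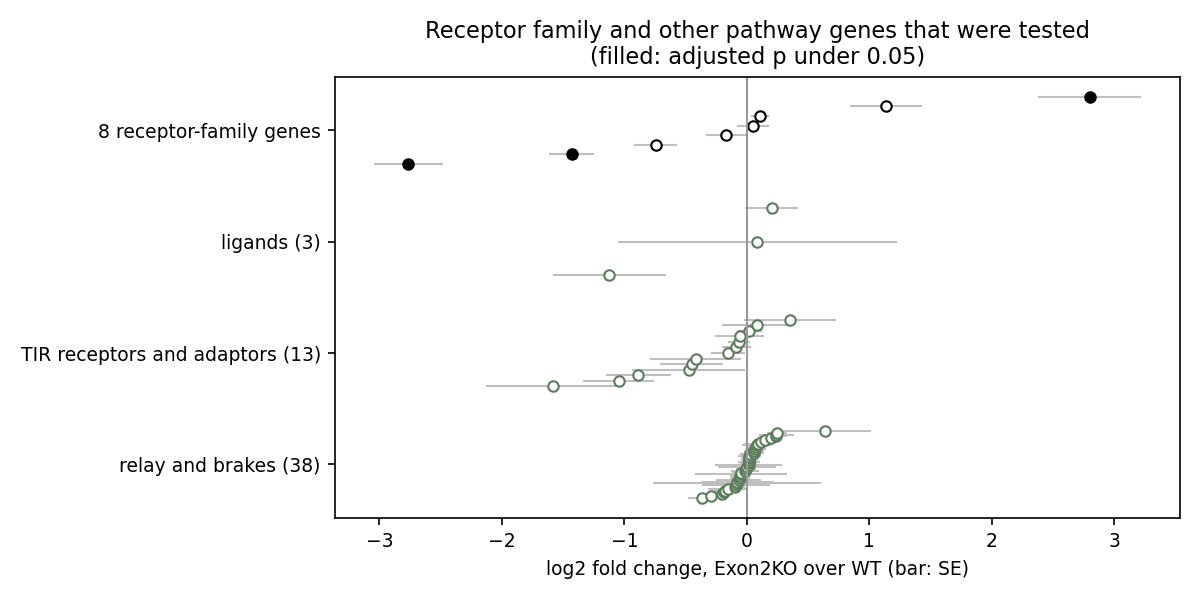
Log2 fold change of Exon2KO over WT with its SE for the 8 receptor-family genes and for the tested genes of the 3 pathway lists (numbers in parentheses), each point 1 gene. The receptor genes span -2.76 to 2.80 and the relay genes and brakes span -0.37 (Map2k3) to 0.64 (Irak3). The ligands span -1.12 (Il18) to 0.20 (Il18bp), and the TIR receptors and adaptors span -1.58 (Tlr4) to 0.35 (Tlr9). No pathway gene is filled as called.

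The tested genes whose pattern over the 6 libraries was most like that of Il1rl1 were Ank3, Klrg1 and Kif19a, with root mean square differences of 0.22, 0.36 and 0.37 between centred log2 CPM values. Klrg1, a lectin-like receptor for cadherins, was at 24.1, 21.3 and 39.1 CPM in WT 2, 6 and 20 and at 2.28, 2.77 and 2.76 CPM in Exon2KO 2, 6 and 20. Ank3 and Kif19a had only 62 and 54 counts over all libraries, and Kif19a was called with the replicate block but not without it. Both passed the filter on low counts only through the WT libraries, so nothing is read from their calls. Most like Il1r1 were Gm19951, Il17a and Padi4 (0.34, 0.39 and 0.43). Padi4 was not called without the replicate block (edgeR adjusted p = 0.130) or with it (edgeR adjusted p = 0.154). Gm19951 was at 0.859, 0.386 and 0.845 CPM in WT 2, 6 and 20 and at 5.28, 5.13 and 1.86 CPM in Exon2KO 2, 6 and 20. Counts of the cytokine gene Il17a were 0, 0 and 1 over the WT libraries and 14, 16 and 11 over the Exon2KO libraries. These genes were picked for likeness to genes that differ between the genotypes, so their own difference follows from the choice. A prior count of 2 went into the log2 CPM values, which makes differences at low counts smaller. The fitted log2 fold change was -4.57 for Ank3 against -2.76 for Il1rl1, and 4.98 for Il17a against 2.80 for Il1r1. The places of Ank3 and Il17a therefore depend on that prior count.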

How the data were processed

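RNA of 6 Treg libraries was sequenced. The submitters' processing notes name HISAT2 2.0.5, StringTie 1.3.3b, featureCounts 1.5.0-p3, DESeq2 1.16.1 and the build mm10, without roles; per the labels' protocols the libraries came from a NEBNext Ultra RNA kit, and the use of strand in counting is not given in the sources used here. Per the file headers, the deposited table holds raw counts per gene for each library. It also holds the authors' comparison: group means of scaled counts (a signal), log2 fold changes, and p-values with their adjusted form. The 6 other value columns, the authors' length-scaled levels, were looked at first and then left out, since columns without a titled sample allow 1 measure per library; levels per length, planned from them, are CPM on the TMM-scaled size per kilobase. The table's gene lengths equal the summed exon length in GENCODE M21 for the 8 genes. Columns carry genotype and a number, not a titled replicate. The members and lists were chosen with earlier results of these data known.

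Counts were fitted with edgeR 4.0.16 in R 4.3.3 (filterByExpr, TMM, robust quasi-likelihood test, two-sided, Benjamini-Hochberg over all tested genes, called under 0.05); SE is the absolute log2 fold change over the square root of F. Scripts were tested on simulated data. The genotype fit had no covariate. Same-numbered libraries deviated from their group means together (correlations over 14919 genes 0.271, 0.369 and 0.494), so a replicate block on the number was fitted as an alternative, named where it changed a call. The other alternatives were other filters, RLE and upper-quartile scaling, DESeq2 1.42.0, limma-voom (limma 3.58.1), no robust estimation and leaving out each library; leaving out both libraries numbered 20, and levels on unscaled totals, were added after seeing the data. Genes named are the 8 members, called pathway genes, cluster neighbours and overlapping genes, and Foxp3. Also named are the 3 genes most like Il1rl1 and the 3 most like Il1r1. Ligands, Sigirr, Tlr4, Tlr9, Ccr6, Il23r, Il17f, Eomes and the neutrophil genes were named after their values were seen. So were pathway genes that differed by column number. Symbols were matched by name for 129 of 133 list entries and through RefSeq's older symbols for 4. Promoter windows of all 8 genes came from RefSeq (GRCm38.p6). The floor used for a level, 3 counts, was 0.141 to 0.169 CPM, which covers counting error only. No pair of libraries of 1 genotype agreed within sampling noise (chi-square per degree of freedom 8.12 to 23.6).
The marker lists of B cells, monocytes and macrophages, CD8 T and NK cells, and stroma and endothelium had no called gene without the block. With it Cd79b (B cells, -0.51) and Lyz2 (monocytes and macrophages, -0.40) were called lower and Pecam1 (endothelium, 0.23) higher. The summed CPM of these lists in WT and Exon2KO was 31.6 to 32.3 and 25.2 to 27.6 (B cells) and 29.7 to 45.0 and 24.5 to 41.2 (monocytes and macrophages). It was 20.5 to 21.8 and 22.2 to 34.4 (CD8 T and NK cells) and 165 to 191 and 188 to 225 (stroma and endothelium, Col3a1 at 0). Pecam1 made up most of the last sum, at 163 to 188 CPM in WT and 186 to 225 CPM in Exon2KO. Cdh5 was at 0 to 0.308 CPM and Pdgfra at 0 to 0.047 CPM over the libraries. Col1a1 was at 1.21 to 2.96 CPM in WT and 0.333 to 1.24 CPM in Exon2KO. Col1a2 was at 0.551 to 1.235 CPM in WT and 0.111 to 0.667 CPM in Exon2KO. One listed marker gene is not reported here.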

Additional observations from a re-analysis of the deposited data

How the results depend on the processing

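Il1rl1 (-3.04 to -2.50) and Il1r2 (-1.58 to -1.22) kept their direction and their call in all 15 alternatives, and Il1r1 (2.30 to 3.23) kept its direction in all 15 and its call in 11; it lost the call with limma-voom (2.69) and without WT 2, WT 6 or Exon2KO 2. Il1rl2 and Il18rap were called in 3 alternatives: with no filter on counts (1.13 and -0.75), by DESeq2 (1.14 and -0.74) and with the replicate block (1.11 and -0.74). With 1 library left out at a time, Il1r1 ran from 2.30 to 3.08, Il18r1 from -0.28 to 0.00022 and Il1rap from -0.011 to 0.14; Il18r1 also turned to 0.077 without both libraries numbered 20, a setting chosen after seeing the data. Myd88 kept its direction in all 15 and was called in none. The count of called genes over the whole table was 348. It became 617 without a filter, 660 with DESeq2, 1450 with the replicate block and 86 to 314 when 1 library was left out (131 without WT 2, 156 without WT 6, 204 without WT 20, 86 without Exon2KO 2). Of the other pathway genes, 1 was called lower without a filter (Map2k3) and 1 with DESeq2 (Relb), and with the replicate block 5 were lower and 3 higher. Their median moved to -0.051 without a filter. The genes that differed between column numbers became 2530 without a filter, and Il1rl1 stayed called in all 5 settings tried (edgeR adjusted p from 5.72e-09 to 0.0023). The causes were not tested. Levels per length on unscaled library totals, an alternative chosen after seeing the data, moved by less than the SD for all 8 genes. The authors' own length-scaled values, first planned for these levels, were looked at and then left out. Columns without a titled sample allow 1 measure per library, and the counts were kept. In that look the means lay within the SD, but Il18r1 and Il1r2 in WT did not overlap. No value from that look is given here. Low counts limit Il1r1 and Il1rl2 in WT.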
